A study of Mus musculus with 27 samples.

Results

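Esrp1, Esrp2, Rbm47, Rbfox2, Ptbp1, Mbnl1, Mbnl2 and Srsf1 were followed through TGF-β-driven EMT as a named set of 8 splicing regulators, out of 24892 genes listed in the deposited RNA-seq tables. The genes were chosen by name, and all 8 have a row in the table of parental cells and in the table of shRNA cells. The data come from NMuMG, an immortal epithelial line from normal mouse mammary gland grown with insulin and serum, which were harvested without TGF-β (0 h) and after 8 and 24 h of it. Parental cells gave 2 RNA-seq libraries per time point. Cells infected with a lentivirus carrying an irrelevant shRNA (control, shCT) and cells infected with an shRNA against lamin B1 (KD, shLB) gave 2 libraries per time point each, and the KD was partial, with Lmnb1 RNA at 0.245 to 0.328 of the control mean. Lamin B1 ChIP-seq and ATAC-seq were done in parental cells, with 1 library per time point each, so no value of a peak below has an error between replicates. The study's methods call the RNA libraries biological replicates without saying which cultures they came from, and p-values here measure the spread between these libraries. In bulk RNA, fewer cells that express a gene and less RNA per cell cannot be told apart.

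During EMT many genes change which exons they use, and the regulators that decide this work largely against each other. ESRP1 and ESRP2 are RNA-binding proteins of epithelial cells that keep the epithelial exons of genes such as Fgfr2, Cd44, Ctnnd1 and Enah, and their loss is a known part of the change to mesenchymal exons. RBM47 is a further epithelial RNA-binding protein that acts on splicing and on mRNA stability. RBFOX2 binds UGCAUG in introns and promotes many mesenchymal exons, while PTBP1 is a widely expressed hnRNP protein that represses exons next to pyrimidine tracts. MBNL1 and MBNL2 are muscleblind proteins known for splicing programs of differentiated cells, and SRSF1 is an SR protein that binds exonic enhancers. The values below are gene-level expression, which adds up all isoforms of a gene, so exon use itself is not measured here.

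In parental cells the epithelial regulators fell and Rbfox2 rose. Rbm47 dropped to 0.189 of its untreated level at 24 h and Esrp2 to 0.630, whereas Rbfox2 reached 2.03 times its untreated level. Ptbp1 and Srsf1, the most abundant of the 8 per length of transcript, fell by less. Mbnl1 and Mbnl2 moved in opposite directions at 8 h and were close to their starting level at 24 h. Esrp1 was almost absent from the start.

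The stretches below are shown because peaks came and went over them (Esrp2), because a lamin B1 peak was called over them at 8 and 24 h but not at 0 h (Rbm47), or because ATAC peaks were there at every time point (Rbfox2). All are from the reference genome mm9, 5′ to 3′ on the strand of the gene, and stand in lower case throughout, since none holds CACCTG or its reverse complement CAGGTG, the E-box bound by the ZEB and SNAI repressors. The first is the 300 bases upstream of the annotated 5′ end of Esrp2, at chr8:108660875-108661174 (minus strand), which overlap exons of the lincRNA gene 1810019D21Rik on the opposite strand. The second is the corresponding stretch of Rbfox2, at chr15:77137484-77137783 (minus strand), outside any annotated exon and with 25 CpG. The third is an intronic stretch of 117 bases of Rbm47, at chr5:66542661-66542777 (minus strand), inside the internal lamin B1 peak of 8 h described below, with 72.6% G or C.
Esrp2 upstream: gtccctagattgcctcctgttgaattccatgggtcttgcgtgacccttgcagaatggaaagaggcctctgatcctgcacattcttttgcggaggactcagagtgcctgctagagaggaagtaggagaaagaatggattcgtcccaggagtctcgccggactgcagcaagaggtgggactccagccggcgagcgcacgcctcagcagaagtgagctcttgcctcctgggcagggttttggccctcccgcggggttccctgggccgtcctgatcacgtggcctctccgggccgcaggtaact
Rbfox2 upstream: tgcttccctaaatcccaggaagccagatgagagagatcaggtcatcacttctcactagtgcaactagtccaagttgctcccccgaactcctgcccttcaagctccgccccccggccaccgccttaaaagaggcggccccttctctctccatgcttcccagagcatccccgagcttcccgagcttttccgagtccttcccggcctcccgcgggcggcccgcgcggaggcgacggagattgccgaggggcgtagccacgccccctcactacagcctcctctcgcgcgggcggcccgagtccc
Rbm47 internal: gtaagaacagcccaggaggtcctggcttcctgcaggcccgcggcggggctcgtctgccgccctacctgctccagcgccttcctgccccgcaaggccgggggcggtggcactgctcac

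The same window of 300 bases is described here for 7 of the members. A CACCTG motif on either strand was found once in that of Srsf1 and in none of the other 6. In all, 20.1% of the 20990 windows of this kind hold it. CAGAC or its reverse complement GTCTG, letters found in Smad binding elements, was in 2 of the 7 windows (Ptbp1 and Mbnl2) and in 46.9% of all windows. No match of one motif overlapped a match of the other in these windows, and a match describes the sequence, not binding. The windows of Rbm47 and Mbnl1 were poor in G and C (45.0% and 38.0%, against a median of 57.7% over tested genes).

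The expression values are FPKM, fragments scaled by transcript length and by the number of mapped fragments in the library. They were compared on the log2(FPKM + 1) scale, which understates the change of genes with low values, with limma on all libraries of a table and a Benjamini-Hochberg adjusted p under 0.05 over all tested genes. A gene was tested where it reached 1 FPKM in at least 2 libraries, which 7 members did in both tables, each of them in every library. Esrp1 did not. Many genes moved in these comparisons, so each count of members stands beside the share of all tested genes that was called.

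As a check of the knockdown, Lmnb1 in KD cells measured 9.01 and 9.27 FPKM at 0 h, 7.79 and 8.14 at 8 h, and 4.37 and 7.52 at 24 h. Control cells measured 29.2 and 36.5 FPKM at 0 h, 32.1 and 32.8 at 8 h, and 17.9 and 18.4 at 24 h, so each KD library was below every control library of its time point. The differences were −1.73, −1.90 and −1.50 on the log2 scale (SE 0.18, adjusted p = 0.000573, 0.000189 and 0.000901), and the last missed the threshold in a fit of the compared groups alone (adjusted p = 0.0538). Epithelial markers were present in part, with Krt8 at 2020 to 3940 FPKM and Cdh1 at 26.8 to 127, but Epcam at 0.171 to 3.15 and Cldn4 at 9.78 or less, and the mesenchymal marker Vim stood at 1160 FPKM or more in every library. Markers of leukocytes, endothelial cells, adipocytes and neurons were at or below 1.93 FPKM, apart from the tubulin gene Tubb3, which reached 16.2 in KD cells at 24 h. The second KD library of 24 h stood apart, with a summed FPKM of 910000 where the other shRNA libraries had 601000 to 845000, 26.2% of it from the small RNA gene Snord47, and a correlation of 0.960 with its replicate. In the shRNA table the median of all tested genes shifted by −0.14 at 8 h and −0.13 at 24 h in control cells and by −0.13 and −0.10 in KD cells, and small changes of members there are to be read against these shifts. The share of calls that were higher was 30.2% and 36.1% in control cells and 33.9% and 39.8% in KD cells, and became 48.4%, 49.0%, 48.7% and 47.3% after median-ratio scaling.

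**Figure D1:**
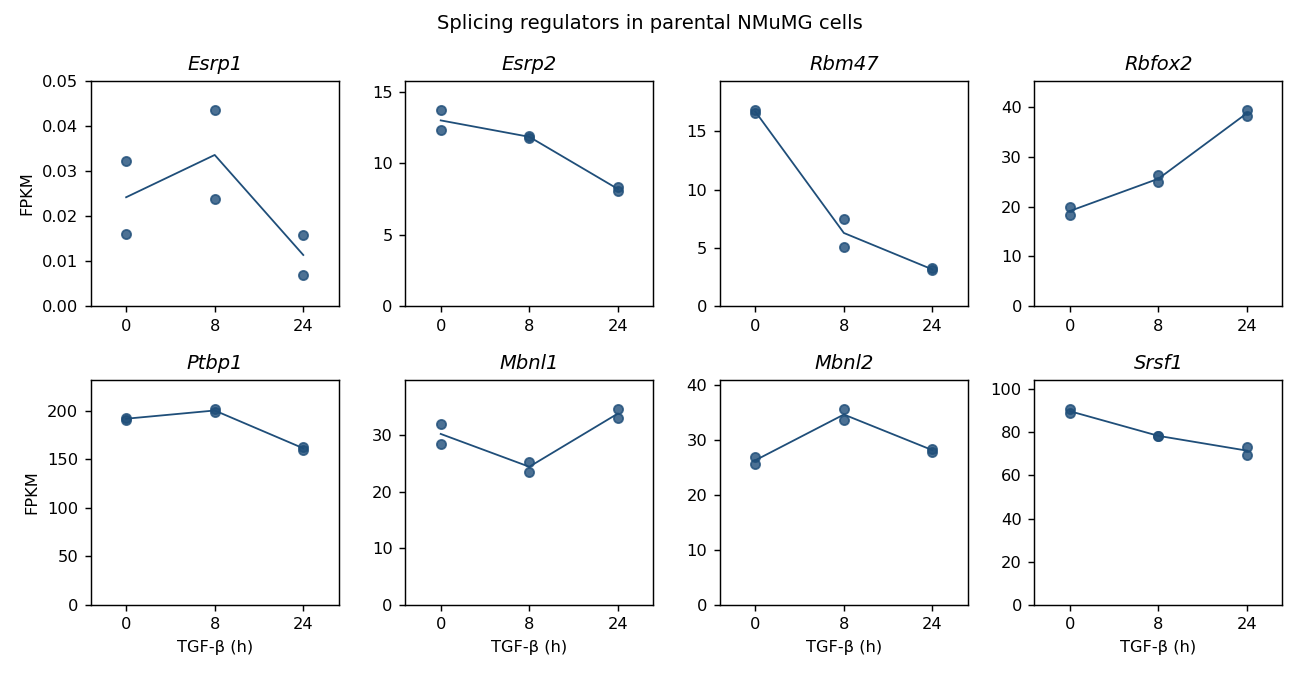
FPKM of the 8 splicing regulators in parental NMuMG cells at 0, 8 and 24 h of TGF-β, where each point is 1 of 2 libraries and the line joins the means. The axis of each gene starts at 0 and has its own range. Rbm47 falls from 16.7 to 3.15 FPKM and Rbfox2 rises from 19.1 to 38.9, while Esrp1 stays below 0.05.

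Per length of transcript the members spanned a wide range in untreated parental cells. Ptbp1 had a mean of 192 ± 1.54 FPKM (SD, n = 2), Srsf1 89.8 ± 1.38, Mbnl1 30.2 ± 2.52, Mbnl2 26.4 ± 0.95, Rbfox2 19.1 ± 1.24, Rbm47 16.7 ± 0.132, Esrp2 13 ± 0.980 and Esrp1 0.0242 ± 0.0114. No 2 neighbours in this order overlapped between their libraries. After 24 h the order had changed, as Rbfox2 (38.9 ± 0.796) stood above Mbnl1 (33.8 ± 1.12) and Mbnl2 (28.2 ± 0.446), and Rbm47 (3.15 ± 0.128) had dropped below Esrp2 (8.20 ± 0.157).

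With TGF-β, 5 of the 7 tested members were called in parental cells at 8 h, beside 54.5% of all tested genes (22.4% higher and 32.1% lower), with Rbfox2 and Mbnl2 higher and Rbm47, Mbnl1 and Srsf1 lower. At 24 h 5 of 7 were called, beside 70.5% of tested genes (33.4% higher and 37.1% lower), with Rbfox2 higher and Esrp2, Rbm47, Ptbp1 and Srsf1 lower. Between 8 and 24 h all 7 were called, beside 51.8% of tested genes (27.7% higher and 24.0% lower), with Rbfox2 and Mbnl1 higher and the other 5 lower. The members' median change was −0.12 at 8 h and −0.25 at 24 h, against −0.046 and −0.019 over all tested genes. At 24 h the share of members called is near its background, and the sizes and directions of single members carry the description.

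Among the epithelial regulators, Esrp1 was listed at 0.0323 and 0.0161 FPKM at 0 h, 0.0435 and 0.0237 at 8 h, and 0.00694 and 0.0158 at 24 h in parental cells. All 6 values lie far under the 1 FPKM filter, and the libraries of the time points overlap between 0 and 8 h. In this line Esrp2 is therefore the ESRP gene with a measurable level.

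Esrp2 measured 12.3 and 13.7 FPKM at 0 h, 11.9 and 11.8 at 8 h, and 8.09 and 8.31 at 24 h. At 8 h the libraries lay just below those of 0 h and the difference did not pass the test (−0.12, SE 0.059, adjusted p = 0.125), although it did when the first library of 0 h was left out, at −0.050 to −0.19 over the libraries left out. At 24 h both libraries were well below the others, with a difference of −0.60 from 0 h (SE 0.059, adjusted p = 9.1e-05) and −0.48 from 8 h (adjusted p = 0.000616). Esrp2 thus fell late.

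Rbm47 measured 16.6 and 16.8 FPKM at 0 h, 5.11 and 7.45 at 8 h, and 3.06 and 3.24 at 24 h. Every library was below every library of the time point before it. The difference from 0 h was −1.30 at 8 h (SE 0.14, adjusted p = 0.00031) and −2.09 at 24 h (adjusted p = 1.28e-05), and that between 8 and 24 h was −0.79 (adjusted p = 0.00284). Most of the fall had taken place by 8 h, before Esrp2 fell.

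Rbfox2, the regulator of mesenchymal exons, measured 18.3 and 20.0 FPKM at 0 h, 26.4 and 24.9 at 8 h, and 39.4 and 38.3 at 24 h. The 3 time points did not overlap. It rose by 0.41 at 8 h (SE 0.056, adjusted p = 0.00105) and by 0.99 at 24 h (adjusted p = 6.93e-06), with a rise of 0.58 between 8 and 24 h (adjusted p = 0.000206).

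The muscleblind genes moved briefly and in opposite directions. Mbnl1 measured 28.4 and 32.0 FPKM at 0 h, 23.5 and 25.3 at 8 h, and 33.0 and 34.6 at 24 h. It was lower at 8 h (−0.30, SE 0.066, adjusted p = 0.00833) and then rose by 0.46 to 24 h (adjusted p = 0.0013), where its difference from 0 h was 0.16 (adjusted p = 0.0631). Mbnl2 measured 25.7 and 27 FPKM at 0 h, 33.7 and 35.7 at 8 h, and 27.9 and 28.5 at 24 h. It was higher at 8 h (0.38, SE 0.048, adjusted p = 0.000639) and then fell by 0.29 (adjusted p = 0.00233), to a difference of 0.095 from 0 h (adjusted p = 0.113). Both differences at 24 h passed the test after quantile normalization, at 0.22 and 0.15, and that of Mbnl1 also without the second library of 0 h (0.24, adjusted p = 0.0211) and in a fit of the compared groups alone (adjusted p = 0.0469).

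The broadly expressed regulators were lower at 24 h by small amounts. Ptbp1 measured 191 and 193 FPKM at 0 h, 199 and 202 at 8 h, and 160 and 163 at 24 h. It differed by 0.061 at 8 h (adjusted p = 0.181), a difference that passed the test after quantile normalization (0.11, adjusted p = 0.0371) and median-ratio scaling (0.11, adjusted p = 0.0467). At 24 h it differed by −0.25 (SE 0.035, adjusted p = 0.000616), and that call was lost after quantile normalization (−0.068, adjusted p = 0.132). Srsf1 measured 88.8 and 90.8 FPKM at 0 h, 78.2 and 78.5 at 8 h, and 69.7 and 73.3 at 24 h. It fell by 0.19 at 8 h (SE 0.039, adjusted p = 0.00547) and by 0.33 at 24 h (adjusted p = 0.000264). The further step of −0.13 between 8 and 24 h (adjusted p = 0.0281) was lost when either library of 8 h or the second library of 24 h was left out, with adjusted p up to 0.194.

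The shRNA cells ask whether lamin B1 changes this course. In control cells 3 of 7 members were called at 8 h, beside 64.3% of all tested genes (19.4% higher and 44.9% lower), and 5 of 7 at 24 h, beside 70.7% (25.5% and 45.1%). In KD cells 6 of 7 were called at 8 h, beside 67.8% (23.0% and 44.8%), and 6 of 7 at 24 h, beside 71.9% (28.6% and 43.3%). The 6 calls of KD cells at 8 h fell to 2 or 3 when 1 library of either group was left out. Rbm47 and Rbfox2 moved as in parental cells in both lines and at both times. With a minimum change of 1 on the log2 scale Rbm47 was the 1 member called at 8 and 24 h in parental, control and KD cells, beside 4.3% and 11.8%, 8.58% and 14.6%, and 10.7% and 15.4% of tested genes. No member passed this minimum between 8 and 24 h in parental cells (3.63% of tested genes), between KD and control cells at 0, 8 or 24 h (0.585%, 0.803% and 0.533%), or in the differences of response (0.262% at 8 h and 0.463% at 24 h).

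**Figure D2:**
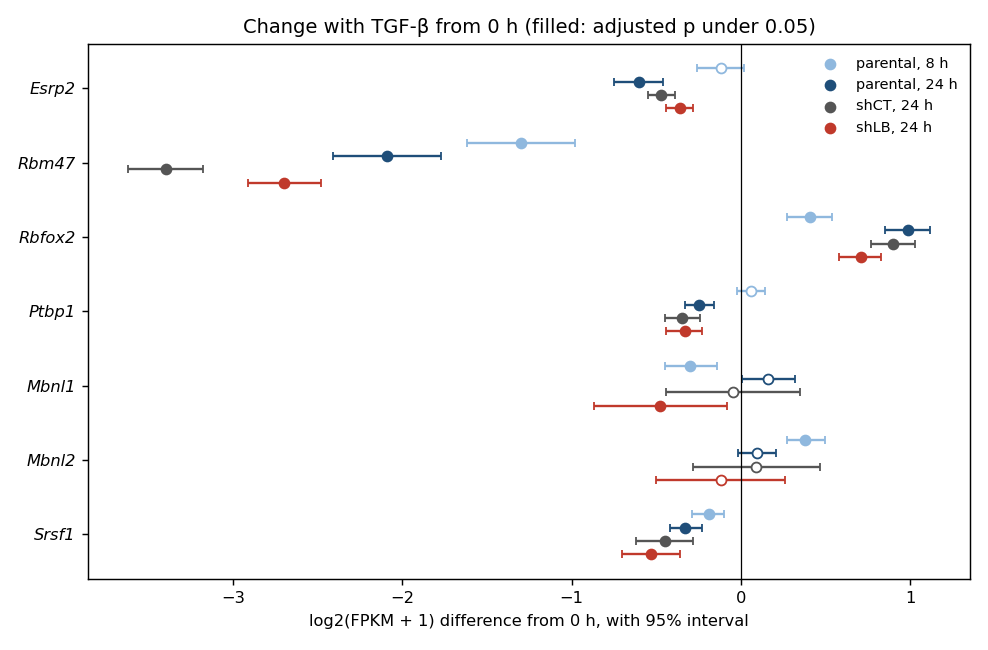
Change of 7 splicing regulators from 0 h on the log2(FPKM + 1) scale in parental cells at 8 and 24 h and in shCT and shLB cells at 24 h, with 95% intervals from limma and filled points where the adjusted p was under 0.05. Rbm47 lies to the left of 0 in all 4 comparisons (−1.30 to −3.40) and Rbfox2 to the right (0.41 to 0.99), while the intervals of Mbnl2 include 0 except in parental cells at 8 h.

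Rbm47 fell further in the shRNA cells than in parental cells as far as the values go, a difference between tables that was not tested. Control cells measured 22.4 and 20.5 FPKM at 0 h, 2.73 and 2.57 at 8 h, and 1.19 and 1.08 at 24 h. KD cells measured 16.7 and 15.7 FPKM at 0 h, 2.47 and 3.05 at 8 h, and 1.46 and 1.87 at 24 h. KD cells thus started lower than control cells and ended higher.

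In control cells Rbm47 changed by −2.62 at 8 h (SE 0.096, adjusted p = 9.01e-08) and by −3.40 at 24 h (adjusted p = 1.17e-08). In KD cells it changed by −2.20 at 8 h (adjusted p = 2.03e-07) and by −2.70 at 24 h (adjusted p = 3.52e-08). The responses at 24 h differed by 0.70 (SE 0.14, adjusted p = 0.0305), the only member for which this difference passed the test, beside 4.72% of tested genes (2.73% higher and 1.98% lower). The call was lost with adjusted p of up to 0.135 when the first control library of 0 h, either KD library of 0 h or either control library of 24 h was left out, and in a fit of the compared groups alone (adjusted p = 0.0882). At 8 h no member passed the test of a difference in response, beside 4.06% of tested genes called by limma (2.45% higher and 1.61% lower). An unadjusted limma p under 0.05 was found for 2 of 7 members, beside 2430 of 11450 tested genes.

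Rbfox2 measured 22 and 19.5 FPKM in control cells at 0 h, 27.5 and 26.4 at 8 h, and 39.5 in both libraries of 24 h. In KD cells its libraries spanned 23.0 to 23.9 FPKM at 0 h, 29.9 to 31.4 at 8 h and 38.7 to 39.1 at 24 h. It rose by 0.37 at 8 h in both lines, and by 0.90 in control and 0.71 in KD cells at 24 h (SE 0.056, adjusted p = 9.81e-07 and 4.2e-06). The KD libraries were above the control libraries at 0 and 8 h and just below them at 24 h, and the difference of 0.17 at 0 h did not pass the test (adjusted p = 0.0599). It passed without the first control library (0.26, adjusted p = 0.00941), and after quantile normalization (0.18, adjusted p = 0.035) and median-ratio scaling (0.19, adjusted p = 0.0234). The responses at 24 h differed by −0.19 (95% interval −0.37 to −0.015), which did not pass the test (adjusted p = 0.179).

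Esrp2 spanned 13.6 to 13.7 FPKM in control cells at 0 h, 13 to 13.2 at 8 h and 9.55 to 9.58 at 24 h. In KD cells it spanned 12.8 to 13.1, 14.2 to 14.2 and 9.84 to 9.86 FPKM. It fell by 0.47 in control cells (SE 0.037, adjusted p = 4.2e-06) and by 0.36 in KD cells (adjusted p = 2.26e-05) at 24 h.
At 8 h it rose by 0.13 in KD cells (adjusted p = 0.0131), where control cells showed −0.053 (adjusted p = 0.234), a value whose sign turned after quantile normalization (0.070) and median-ratio scaling (0.086). The difference between both responses was 0.18 (adjusted p = 0.0935). The rise in KD cells did not pass without the first KD library of 0 h or without either KD library of 8 h (adjusted p up to 0.0831).

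Esrp1 stayed under 1 FPKM in all shRNA libraries too. KD cells at 8 h were listed at 0.238 and 0.324 FPKM, where control cells had 0.0502 and 0.0591, and all other groups lay between 0.00427 and 0.0636. The KD libraries of 8 h thus stand apart from all others, at 5.14 times the control mean, but at a level far under the filter. In a fit with no filter the difference at 8 h was 0.28 (adjusted p = 0.00103), and that between the responses at 8 h was 0.26 (adjusted p = 0.0343).

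**Figure D3:**
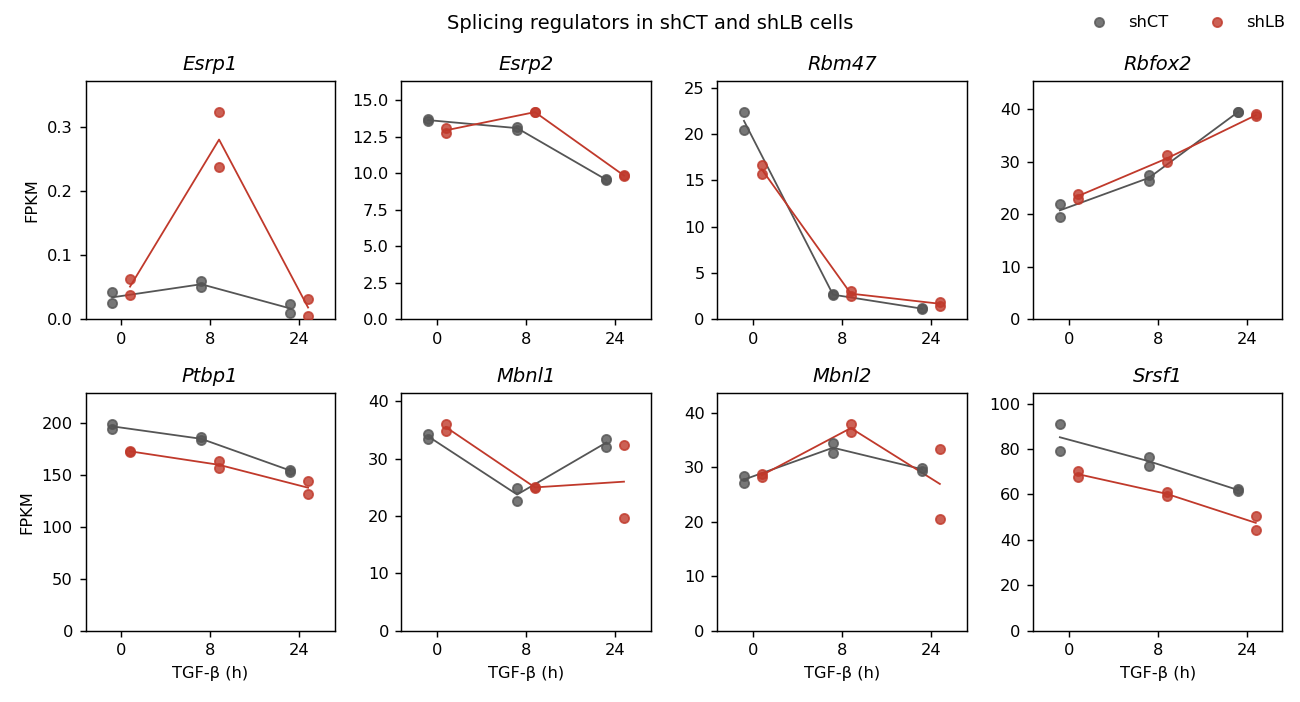
FPKM of the 8 splicing regulators in control (shCT, grey) and KD (shLB, red) cells at 0, 8 and 24 h of TGF-β, where each point is 1 of 2 libraries and lines join the means. Each axis starts at 0. The KD points of Ptbp1 and Srsf1 lie below the control points at every time, and the points of Mbnl1 and Mbnl2 in KD cells at 24 h lie far apart (19.6 and 32.4, 20.6 and 33.3 FPKM).

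Ptbp1 and Srsf1 were lower in KD cells at every time point. Ptbp1 spanned 194 to 199 FPKM in control and 172 to 173 in KD cells at 0 h, 183 to 186 and 156 to 163 at 8 h, and 153 to 155 and 131 to 144 at 24 h. The differences were −0.18, −0.21 and −0.17 (SE 0.046, adjusted p = 0.0268, 0.00805 and 0.0288). Control and KD libraries did not overlap at any time, but each call was lost without at least 1 library.

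Srsf1 spanned 79.2 to 91.1 FPKM in control and 67.6 to 70.3 in KD cells at 0 h, 72.6 to 76.6 and 59.4 to 61.1 at 8 h, and 61.4 to 62.5 and 44.4 to 50.6 at 24 h. The differences were −0.30, −0.30 and −0.38 (SE 0.075, adjusted p = 0.0266, 0.0144 and 0.00752). No control library overlapped with a KD library of its time, and each of these calls too was lost without at least 1 library. Ptbp1 fell by 0.35 and Srsf1 by 0.45 in control cells with 24 h of TGF-β (adjusted p = 0.000137 and 0.0006), and by 0.33 and 0.53 in KD cells (adjusted p = 0.000182 and 0.000201). At 8 h the small falls of both in KD cells (−0.12 and −0.19) were lost whichever library was left out, with adjusted p up to 0.230, and that of Ptbp1 turned to 0.020 after median-ratio scaling.

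Against control cells, KD cells had 3 of 7 members called at 0 h (Rbm47, Ptbp1 and Srsf1, all lower), beside 19.7% of tested genes (10.6% higher and 9.09% lower). At 8 h 4 of 7 were called, beside 35.8% of tested genes (19.3% higher and 16.5% lower), with Esrp2 (0.11, adjusted p = 0.0473) and Rbfox2 (0.18, adjusted p = 0.0366) higher and Ptbp1 and Srsf1 lower. At 24 h 3 of 7 were called, beside 28.3% (16.8% higher and 11.5% lower), with Rbm47 higher (0.32, adjusted p = 0.0379) and Ptbp1 and Srsf1 lower. Rbm47 at 0 h differed by −0.38 (adjusted p = 0.0259). None of these 10 calls held whichever library was left out. Esrp2 and Rbfox2 at 8 h were lost without any 1 of the 4 libraries (adjusted p of 0.135 to 0.192 and of 0.0727 to 0.186). Ptbp1 and Srsf1 at 0 h were lost without the second control library or either KD library (up to 0.133 and 0.145), and Rbm47 at 0 h without the first control library or either KD library (up to 0.147). At 8 h Ptbp1 was lost without the first library of either line (up to 0.0609), and Srsf1 without the second control library or either KD library (up to 0.0904). At 24 h Ptbp1 was lost without either control library or the first KD library (up to 0.139), Rbm47 without either control library or the second KD library (up to 0.171), and Srsf1 without the second control library (0.0503). The sign stayed the same in all of these fits. A library left alone in its group was assumed to vary like the other groups.

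**Figure D4:**
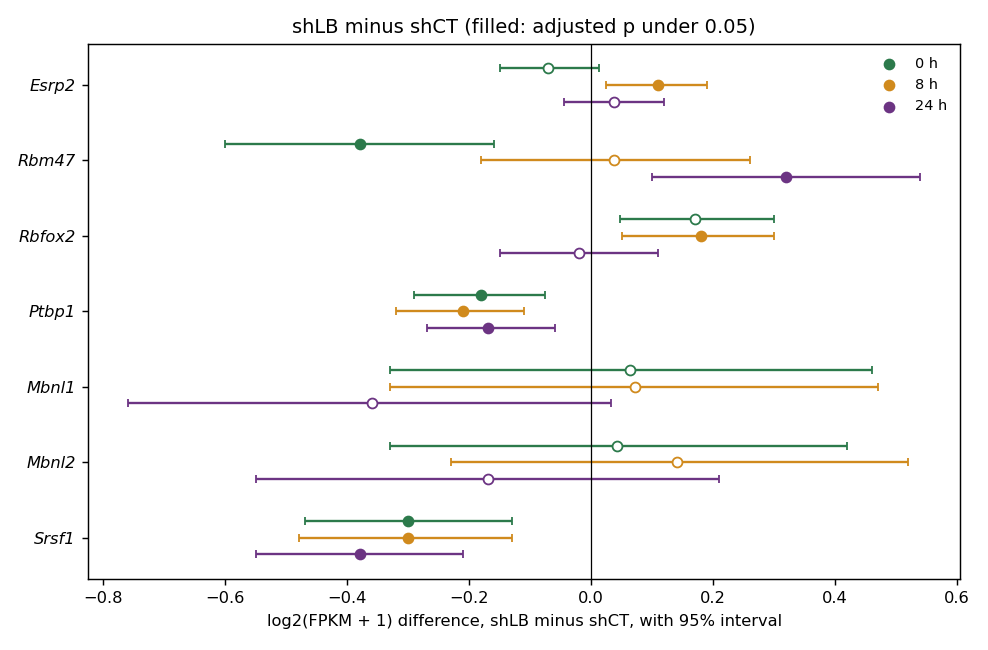
Difference between KD and control cells (shLB minus shCT) for 7 splicing regulators on the log2(FPKM + 1) scale at 0, 8 and 24 h, with 95% intervals from limma and filled points where the adjusted p was under 0.05. All 3 points of Ptbp1 (−0.17 to −0.21) and Srsf1 (−0.30 to −0.38) are filled and below 0, and the intervals of Mbnl1 and Mbnl2 include 0.

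Mbnl1 in the shRNA cells showed the same dip at 8 h, from 33.5 to 34.3 FPKM down to 22.6 to 24.9 in control cells and from 34.9 to 36.1 down to 24.9 to 25.1 in KD cells. The changes of −0.50 and −0.49 (SE 0.17) passed the test (adjusted p = 0.0329 and 0.033), but were lost whichever library was left out and after quantile normalization (−0.39 and −0.40). Both calls were kept in a fit of the compared groups alone. The SE of the main fit is shared by all shRNA groups, of which KD cells at 24 h had the widest spread (SD 9.03 FPKM). At 24 h control cells were back at 32.1 to 33.5 FPKM, while the KD libraries measured 32.4 and 19.6.
The change in KD cells at 24 h (−0.48, adjusted p = 0.0347) rests on the KD library that stands apart. It was −0.13 without the second KD library of 24 h, where the call was lost, and −0.82 without the first. The call was also lost without either KD library of 0 h. Against control cells at 24 h the difference was −0.36 (adjusted p = 0.148). It was −0.71 without the first KD library and −0.016 without the second.

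Mbnl2 spanned 27.1 to 28.4 FPKM in control cells at 0 h, 32.7 to 34.5 at 8 h and 29.4 to 29.9 at 24 h. KD cells spanned 28.3 to 28.8 FPKM at 0 h and 36.4 to 38.0 at 8 h, and measured 33.3 and 20.6 at 24 h. The differences at 8 h of 0.27 in control and 0.37 in KD cells did not pass the test (adjusted p = 0.184 and 0.076), although the libraries did not overlap, and the latter passed after quantile normalization (0.45) and median-ratio scaling (0.50). Both passed in a fit of the compared groups alone (adjusted p = 0.0127 and 0.000446). Without the second KD library of 24 h, the change in KD cells at 24 h turned from −0.12 to 0.21 (adjusted p = 0.00488), and the difference from control cells at 24 h from −0.17 to 0.16 (adjusted p = 0.0449). Without the first they were −0.45 (adjusted p = 6.29e-05) and −0.50 (adjusted p = 0.000264). The part of that library's small-RNA share in these values was not tested.

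The factors known as repressors of the Esrp genes rose with TGF-β. In parental cells at 24 h Zeb1 went from 5.52 to 20.0 FPKM (1.69, adjusted p = 9.86e-07), Snai1 from 2.11 to 12 (2.06, adjusted p = 6.54e-06), Zeb2 from 1.97 to 6.87 (1.40, adjusted p = 2.99e-06) and Snai2 from 1.98 to 6.25 (1.28, adjusted p = 2.74e-06). These are 4 of 4, beside 33.4% of tested genes called higher. All 4 rose in control and in KD cells at 24 h as well, beside 25.5% and 28.6%. Against control cells 1 of the 4 was lower in KD cells at each time, beside 9.09%, 16.5% and 11.5% of tested genes, and none was higher. It was Snai1 at 0 h (0.668 against 1.07 FPKM, −0.31, adjusted p = 0.0467), Zeb1 at 8 h (10.3 against 12.3, −0.23, adjusted p = 0.0192) and Zeb2 at 24 h (4.99 against 6.45, −0.32, adjusted p = 0.0294). After quantile normalization 0, 1 and 2 of the 4 were lower at 0, 8 and 24 h, beside 1007, 2026 and 1611 of 11450 tested genes. The counts were the same after median-ratio scaling, beside 817, 1768 and 1554.

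Other SR proteins, relatives of Srsf1, mostly fell. Of 11 tested in parental cells, 8 were lower at 24 h and none was higher, with a median of −0.17. Of all tested genes, 37.1% were called lower. After quantile normalization 6 were lower and 1 higher, beside 3895 and 4079 of 11309 tested genes. Srsf2 fell from 171 to 125 FPKM (−0.45, adjusted p = 4.7e-05) and Srsf3 from 172 to 132 (−0.39, adjusted p = 0.000199). In control cells 9 of 11 were lower at 24 h, beside 45.1% of tested genes. After quantile normalization 5 were lower, beside 3901 of 11450 tested genes, and after median-ratio scaling 4, beside 3942. In KD cells against control cells 4 of 11 were lower at 0 h, 7 at 8 h and 6 at 24 h and none was higher, beside 9.09%, 16.5% and 11.5% of tested genes. After quantile normalization 3, 7 and 7 were lower, beside 1007, 2026 and 1611 of 11450 tested genes. After median-ratio scaling 1, 5 and 6 were lower, beside 817, 1768 and 1554. Srsf7 (−0.38, adjusted p = 0.00277) and Srsf2 (−0.34, adjusted p = 0.00429) had the largest falls at 8 h among the 11.

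The hnRNP proteins, the family of Ptbp1, had 18 of 24 tested genes lower and 2 higher in parental cells at 24 h, beside 37.1% and 33.4% of tested genes. After quantile normalization 13 were lower and 4 higher, beside 3895 and 4079 of 11309 tested genes. Hnrnpu fell from 216 to 157 FPKM (−0.46, adjusted p = 4.35e-05) and Hnrnpab from 289 to 213 (−0.44, adjusted p = 0.000102). Ptbp3, a paralog of Ptbp1, moved the other way, from 30.7 to 45.9 FPKM (0.56, adjusted p = 0.000507), and also rose in control cells (0.85, adjusted p = 0.00352). In KD against control cells 14 of 24 were lower at 0 h, 13 at 8 h and 15 at 24 h, with 1 higher at 8 h (Hnrnpul2), beside 9.09%, 16.5% and 11.5% of tested genes called lower. After quantile normalization 9, 10 and 18 were lower, beside 1007, 2026 and 1611 of 11450 tested genes. Hnrnpr was lower in KD cells at 8 h (8.03 against 13.4 FPKM, −0.67, adjusted p = 0.000111).

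Of 30 genes of the core spliceosome, 20 were lower and none was higher in parental cells at 24 h, beside 37.1% and 33.4% of tested genes, among them Snrpa1 (−0.50, adjusted p = 3.4e-05) and Snrpb (−0.49, adjusted p = 0.00024). KD cells had 5, 15 and 3 of the 30 lower than control cells at 0, 8 and 24 h and none higher, beside 9.09%, 16.5% and 11.5% of tested genes called lower, so that the count at 24 h is near the background. The lower genes at 8 h included Snrpd1 (−0.41, adjusted p = 0.0028) and Snrnp200 (−0.41, adjusted p = 0.0302). After quantile normalization the counts were 17 lower and 1 higher in parental cells at 24 h, beside 3895 and 4079 of 11309 tested genes. In KD cells 2, 16 and 6 were then lower, beside 1007, 2026 and 1611 of 11450.

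Of 14 tested tissue-type splicing regulators outside the 8, 7 were lower and 2 higher in parental cells at 24 h, beside 37.1% and 33.4% of tested genes. Qk, whose protein quaking is known for mesenchymal and circular RNA splicing, rose from 34.7 to 57.0 FPKM (0.70, adjusted p = 4.37e-05) and Tia1 from 10.5 to 14.0 (0.38, adjusted p = 0.00093). Khdrbs3 fell from 43.3 to 27.1 FPKM (−0.66, adjusted p = 5.3e-05) and Rbm38 from 16.9 to 12.5 (−0.41, adjusted p = 0.00187). Rbm38 was also lower in KD than in control cells at 8 h, at 7.82 against 13.2 FPKM (−0.68, adjusted p = 0.000273), as 1 of 5 lower and none higher among the 14, beside 16.5% and 19.3% of tested genes. Among 6 SR protein kinases, Srpk2 (0.55, adjusted p = 0.000192) and Clk3 (0.18, adjusted p = 0.00985) rose and Srpk1 fell (−0.32, adjusted p = 0.000314) in parental cells at 24 h. In KD cells 2 of the 6 were lower at 8 h (Clk2 and Clk3), beside 16.5%.

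Among 15 genes whose exons are known to differ between epithelial and mesenchymal cells, 7 were higher and 4 lower in parental cells at 24 h, beside 33.4% and 37.1% of tested genes, so that the share called is near the 70.5% of the background. Ctnnd1 rose from 126 to 195 FPKM (0.63, adjusted p = 1.89e-05). Slk fell from 37.9 to 21.8 FPKM (−0.77, adjusted p = 3.4e-05) and Pkm from 1900 to 1240 (−0.61, adjusted p = 3.13e-05). These are totals over isoforms and say nothing of which exon was used. KD cells had 3 of the 15 lower and none higher than control cells at 8 h, beside 16.5% and 19.3% of tested genes, among them Numb (−0.29, adjusted p = 0.0256) and Scrib (−0.26, adjusted p = 0.0031).

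The patterns most like those of the members, by the smaller of the Pearson correlations over 6 parental and 12 shRNA libraries among 10843 genes, are given as a description, since the libraries of a table share their time points. Esrp2 ran with the keratin genes Krt79 (0.985 and 0.988) and Krt6a (0.986 and 0.984) and with the galectin gene Lgals4 (0.978 and 0.987). Rbm47 ran with Epb4.1l5 (0.997 and 0.994), Camk2d (0.997 and 0.992) and Sema3e (0.994 and 0.992). Rbfox2 ran with Vgll3 (0.997 and 0.988), Pmaip1 (0.989 and 0.986) and Igfbp7 (0.983 and 0.986), and Ptbp1 with the hnRNP genes Hnrnpc (0.989 and 0.963) and Hnrnpk (0.990 and 0.961) and with Wdr5 (0.958 and 0.973). Srsf1 ran with the nucleolin gene Ncl (0.994 and 0.979), with Srsf7 (0.974 and 0.976) and with Klhl2 (0.988 and 0.971). Mbnl1 ran with Akap11 (0.981 and 0.941), 9930021J03Rik (0.938 and 0.947) and Ap5m1 (0.956 and 0.923), and Mbnl2 with Trim33 (0.932 and 0.957), Tbc1d8b (0.956 and 0.907) and Ubxn2a (0.903 and 0.903). Between members, Rbfox2 ran against Rbm47 (−0.96 and −0.91) and Esrp2 (−0.94 and −0.81).

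Lamin B1 + sites and open chromatin were then read at the member loci, from 2500 bp upstream of the annotated 5′ end to the 3′ end. Lamin B1 is a protein of the nuclear lamina, and the ChIP here was made from chromatin sheared so as to favour accessible regions. ATAC-seq marks accessible DNA. A peak was called in 5 of the 8 member loci for lamin B1 at 0 h, 7 at 8 h and 6 at 24 h, beside 19.9%, 38.8% and 29.4% of the 20994 genes that could be placed, and 33.6%, 56.5% and 44.0% of the placed genes that were also tested. For ATAC the counts were 6, 5 and 7, beside 37.0%, 32.9% and 60.0% of placed genes. Of the placed genes that were also tested, 64.4%, 55.9% and 92.8% had an ATAC peak. The lists differ in length (4645, 10484 and 7083 lamin B1 peaks and 9782, 10340 and 33811 ATAC peaks), several members are long genes, and a peak missing from a list does not show that the signal was absent.

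**Figure D5:**
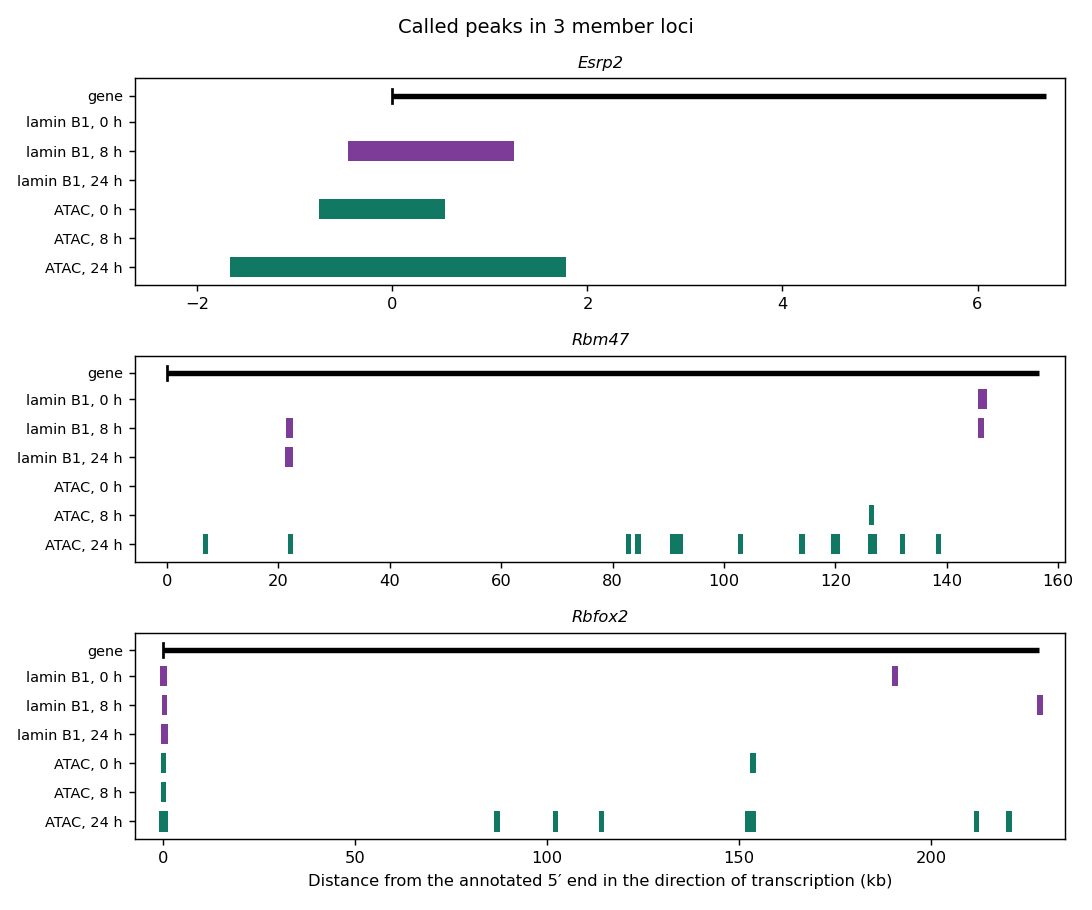
Peaks called by the authors at the loci of Esrp2, Rbm47 and Rbfox2, by distance in kb from the annotated 5′ end (vertical tick) along the gene (black line), for lamin B1 (purple) and ATAC (green) at 0, 8 and 24 h. Bars span the peaks, and peaks too narrow to be seen are drawn wider. Esrp2 has a lamin B1 peak over its 5′ end at 8 h alone, Rbm47 has an internal peak about 22 kb in at 8 and 24 h, and Rbfox2 keeps peaks over its 5′ end at all times.

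Esrp1 (ENSMUSG00000040728.9, chr4:11259080-11313930, minus strand) had no lamin B1 or ATAC peak at any time. The nearest lamin B1 peak lay 194.3 kb from its 5′ end at 0 h, 132.6 kb at 8 h and 132.4 kb at 24 h. The nearest ATAC peak lay 98.9, 132.3 and 38.3 kb away. It was thus the member with the least RNA and with no called peak.

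Esrp2 (ENSMUSG00000084128.3, chr8:108654219-108660874, minus strand) had a lamin B1 peak in its locus at 8 h alone, at chr8:108659633-108661326, with a score of 95.29. It covers the 5′ end and the whole upstream stretch printed above. At 0 and 24 h the nearest lamin B1 peak was 31.2 and 31.3 kb away. The ATAC lists showed the reverse order in time, with a peak over the 5′ end at 0 h (chr8:108660333-108661625, score 63.02) and at 24 h (chr8:108659092-108662537, score 198.87) but none in the locus at 8 h, the time at which the Esrp2 level had not yet fallen. The peaks also cover the opposite lincRNA gene, so they cannot be assigned to Esrp2 alone. The ATAC peak of 0 h stood at percentile 19.6 of its list, and the median score of the ATAC lists was 93.06 at 0 h, 73.9 at 8 h and 155.23 at 24 h. Whether the missing ATAC peak of 8 h is particular to Esrp2 was not tested.

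Rbm47 (ENSMUSG00000070780.5, chr5:66407788-66564356, minus strand) had no peak of either kind at its annotated 5′ end. At 0 h 1 lamin B1 peak lay near the 3′ end, with its centre over an exon 146.4 kb from the 5′ end (score 81.93), and it was called again at 8 h (score 79.49) but not at 24 h. At 8 h a second lamin B1 peak appeared at chr5:66541788-66542998 (score 131.45), which holds 4 annotated transcript starts, about 22 kb inside the gene. It was there again at 24 h (chr5:66541776-66543071, score 128.94). The intronic Rbm47 stretch printed above lies within both. ATAC had no peak in the locus at 0 h, 1 at 8 h in an intron, and 11 at 24 h, of which 1 overlaps the internal starts under the lamin B1 peak (chr5:66541766-66542691, score 131.25). The internal lamin B1 peak was thus called at the times at which Rbm47 RNA was low.

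Rbfox2 (ENSMUSG00000033565.9, chr15:76909420-77137483, minus strand) had a lamin B1 peak over its 5′ end at each time, at chr15:77136450-77138061 at 0 h, chr15:77136344-77137692 at 8 h and chr15:77136208-77137829 at 24 h. The scores were 76.33, 124.57 and 143.54, at percentiles 59.6, 79.7 and 83.7 of their lists. ATAC peaks covered the same 5′ end at each time, with scores of 222.33, 116.12 and 616.14. The upstream stretch printed above lies within the lamin B1 peaks of 0 and 24 h and within all 3 ATAC peaks. Scores of different libraries depend on depth, which the lists do not give, and their order is a description.

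Mbnl1 (ENSMUSG00000027763.7, chr3:60277032-60433670, plus strand) had a lamin B1 peak at an internal cluster of 3 transcript starts about 28.4 kb from the 5′ end at all times, with scores of 58.53 at 0 h, 151.76 at 8 h and 108.64 at 24 h. Open chromatin was called there at 24 h alone, by an ATAC peak with a score of 215. Mbnl2 (ENSMUSG00000022139.9, chr14:120674891-120830919, plus strand) had an ATAC peak over its 5′ end at all times (scores 136.08, 72.42 and 401.59) and no lamin B1 peak there. Its lamin B1 peaks lay 113.5 kb inside the gene at 8 h (score 69.24) and 24 h (score 144.3).

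Ptbp1 (ENSMUSG00000006498.9, chr10:79317172-79327516, plus strand) had lamin B1 peaks at its 5′ end at all times, with scores of 102.47, 107.26 and 178.69, the last starting 124 bp downstream of the end. Its 5′ end lay in an ATAC peak at all times (scores 230.67, 77.31 and 412.33). Srsf1 (ENSMUSG00000018379.11, chr11:87860875-87867257, plus strand) had a lamin B1 peak starting 411 bp downstream of its 5′ end at 0 h (score 64.4), over the 5′ end at 8 h (score 234.42) and 507 bp downstream at 24 h (score 101.46). Like Esrp2, its 5′ end lay in an accessible peak at 0 h (score 127.7) and 24 h (score 339.66), and none was called in the locus at 8 h.

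Within 500 bp of the 5′ end, lamin B1 peaks were called for 3 of the 8 members at 0 h (Rbfox2, Ptbp1 and Srsf1), 4 at 8 h (with Esrp2) and 2 at 24 h (Rbfox2 and Ptbp1), beside 15.4%, 30.5% and 23.8% of placed genes. For ATAC the counts were 5, 3 and 5, beside 30.6%, 25.0% and 47.1%. Of the placed genes that were also tested, 27%, 46.5% and 37.4% had a lamin B1 peak there. An ATAC peak was there in 56.3%, 46.1% and 84.0% of them. The share of members was below these values for lamin B1 at 24 h and for ATAC at 8 and 24 h, and above them otherwise. Peaks at the 5′ end were called for Rbfox2, which rose, and for Ptbp1, which fell, at every time point.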

How the data were processed

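Per the deposited tables, the authors gave gene expression as FPKM without counts or depth, and low-value steps put relative depth at 79.0% to 116% of the first library of a table, from only 17.7% to 33.9% of the low genes, so that precision rests on the number of libraries. The submitters' processing notes name Bowtie, TopHat, Cufflinks and mm9, with versions not given in the sources used here. Peaks are the authors' MACS calls with a deposited score, from 50 upward. Log2(FPKM + 1) values of genes with 1 FPKM or more in at least 2 libraries (11309 parental, 11450 shRNA) were fitted by limma 3.58.1 (R 4.3.3), two-sided, with trend and all groups of a table in 1 fit, and Benjamini-Hochberg adjustment over all tested genes. The tables were tested separately. The fit was tested on simulated data. Peaks were placed on genes with at least 1 bp of overlap, and sequences were read from the mm9 genome.

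The members and lists were chosen with earlier results of these data known. Named were all members, Lmnb1, the repressors, and from each list the genes with the largest called changes in each direction. 1 gene that this rule names and 1 upstream sequence are not reported here. Hi-C data were not analysed here.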

Additional observations from a re-analysis of the deposited data

Results flagged for a closer look

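The response of Rbm47 at 24 h differed between KD and control cells by 0.70 on the log2 scale (SE 0.14, limma adjusted p = 0.0305), since KD cells started lower and ended higher. The call was lost in 6 of 15 alternative fits, among them that of the compared groups alone (limma adjusted p = 0.0882). At 24 h the libraries measured 1.08 to 1.19 FPKM in control and 1.46 to 1.87 in KD cells, near the 1 FPKM filter. Esrp2 at 8 h rose in KD cells while control cells showed a value below 0, and the responses differed by 0.18, which did not pass the test of the difference (limma adjusted p = 0.0935). At 8 h Ptbp1 was above its untreated libraries in parental cells and below them in control cells, with a gap of 0.15 that was not tested because the tables were normalized separately. Neither change of Ptbp1 was called in the main fit (0.061 and −0.087, limma adjusted p = 0.181 and 0.127). The value of control cells turned to 0.061 after median-ratio scaling. At 24 h Mbnl1 was higher than at 0 h in parental cells and lower in control cells, with a gap of 0.21 that was not tested either. Neither change of Mbnl1 was called in the main fit (0.16 and −0.047, limma adjusted p = 0.0631 and 0.821). The value of control cells turned to 0.080 after quantile normalization and to 0.081 after median-ratio scaling.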

How the results depend on the processing

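Setting aside the minimum change of 1, 29 of 37 member calls between time points passed in every alternative fit, including those without 1 library. Of 11 calls between KD and control cells or of a difference in response, 0 did. Over single genes, 686 alternative values kept direction and side of the threshold, 97 lost the call, 20 gained it and 9 turned direction. The cause was not tested for any of these. With quantile normalization Esrp2 in control cells at 8 h turned to 0.070 and Mbnl1 in control cells at 24 h to 0.080, and with median-ratio scaling they turned to 0.086 and 0.081, Ptbp1 at 8 h to 0.061 in control and 0.020 in KD cells. Rbm47 in KD against control cells at 8 h turned to −0.074 without the second KD library of 8 h (0.15 without the first), and Mbnl2 turned to 0.21 (KD cells, 24 h) and 0.16 (KD against control, 24 h) without the second KD library of 24 h (−0.45 and −0.50 without the first).

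With a minimum change of 1 on the log2 scale the members called were 1, 1 and 0 in parental cells (8 h, 24 h, and 24 against 8 h), 1 and 1 in control cells, 1 and 1 in KD cells, 0, 0 and 0 between KD and control cells, and 0 for the 24 h difference. Fits of the compared groups alone gave 0 at 0 h, 0 at 24 h and 0 for the 24 h difference, and no filter gave 1 for the 8 h difference (Esrp1). Leaving out 1 library gave 5 to 6, 5 to 6 and 6 to 7 calls in parental cells, 2 to 3 and 5 to 5 in control cells, 2 to 3 and 5 to 7 in KD cells, 0 to 3, 0 to 1 and 0 to 4 between KD and control cells at 0, 8 and 24 h, 0 to 0 for the 8 h difference and 0 to 3 for the 24 h difference. The counts from fits with 1 library left out, with the compared groups alone or with the block below lack the share of all tested genes. They do not set the members apart from other genes. Members with a lamin B1 peak numbered 3 at 0 h with scores at or above the list median, 3, 4 and 2 at 0, 8 and 24 h within 500 bp of the 5′ end, and 3, 4 and 3 within 2500 bp. Members with an ATAC peak at 8 h numbered 3 with scores at or above the list median, within 500 bp of the 5′ end or of any start, and within 2500 bp. Within 500 bp of any start, 26.8% of placed genes had an ATAC peak at 8 h. The counts by score or within 2500 bp lack a share of all genes and do not set the members apart.

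The replicate numbers of the shRNA libraries did not pair the samples in most groups (2 of 15 pairs of groups had a correlation of deviations over 0.1, range −0.135 to 0.368). The highest value was that of control with KD cells at 24 h. A fit with the replicate number as a block gave 3, 5, 5 and 6 calls for control and KD cells at 8 and 24 h, 4, 3 and 2 between KD and control cells, and 0 and 1 for the differences. With the block Rbfox2 was called higher in KD cells at 0 h (0.17, adjusted p = 0.0453). No paired analysis of parental cells was possible because no replicate number marks the parental columns. Depth is unknown, and limits Esrp1 above all.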
